A study of Mus musculus with 2 samples.

Results

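The cells described here were 443 progenitors from mouse small intestinal organoids whose DNA replication transcripts were high while their mitotic transcripts were not. They came from a pool of 1809 cells, set by limits and not by progenitor markers, out of 21806 deposited barcodes. Organoids of this kind are closed epithelial cultures that keep the crypt's stem and dividing cells and their differentiated offspring. The study set control organoids beside organoids treated with melatonin, with cells of 3 separate organoid lines pooled in each group on day 3 of culture, and measured them by droplet single-cell RNA sequencing that tags the 3′ end of each transcript with a molecular identifier (UMI). The mouse strain and age and the dose and duration of melatonin are not given in the sources used here.

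The files deposited for the control and the melatonin sample held identical values in all 3 kinds of file, so there was 1 matrix, treated here as 1 sample. Its barcodes carried suffix 1 (12364 barcodes) or suffix 2 (9442 barcodes), and no label ties a suffix to a treatment. No comparison of melatonin with control could be made, the direction of any ratio between suffixes is arbitrary, and no test was run. Intervals below are exact 95% intervals that cover counting error only, Poisson for levels and Clopper-Pearson for shares.

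The cells were chosen by measured values. The pool held barcodes with at least 10000 UMIs, at most 20% mitochondrial UMIs, and, per 10000 UMIs, fewer than 5 of the enteroendocrine gene Chgb, fewer than 2 of the stem cell gene Lgr5 and fewer than 6 summed over the enterocyte genes Apoa1, Apoa4, Fabp1 and S100g. The S score summed the UMIs of Mcm3, Mcm6, Ung, Cdt1 and Clspn per 10000, and the M score those of Ube2c, Cenpa, Ccnb2, Nusap1, Cdca3 and Aurkb. Members, called S-high progenitors below, had an S score at or above the pool's 75th percentile of 2.09 and an M score under its 75th percentile of 16.53. Of the rest, 443 cells were high in M alone (M-high), 913 were under both limits (low-score) and 10 were high in both. Every value below comes from the same cells as the choice, so all of it is description. DNA content was not measured: S phase is read from transcripts alone.

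A cell copies its DNA once per division. During G1 the origin recognition complex, CDC6 and CDT1 load the MCM helicase onto origins; cyclin E with CDK2 and the DBF4-dependent kinase then start the forks, and transcription factors of the E2F family, released from the retinoblastoma protein, drive many genes of this machinery at the G1/S boundary. Mitotic genes follow later, in G2. In the intestine these divisions take place in crypt stem cells and in the transit-amplifying progenitors that feed the villus.

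At the chosen limits few pool cells were high in both scores, which are the scores that chose the cells. Of 453 pool cells at or above the S limit, 10 were also at or above the M limit, which is 2.21% (interval 1.06 to 4.02), while 453 of the 1809 pool cells reached the M limit, which is 25.04% (23.1 to 27.1). Among S-high progenitors the S score ran from 2.09 through a median of 3.80 to 11.9 per 10000, and the M score from 0 through 3.04 to 16.3. The S score rested on few molecules, with 3 UMIs of the 5 genes in the lowest cell, 12 in the median cell and 42 in the highest. All 5 genes were seen in 161 of the 443 cells, 4 in 175, 3 in 83 and 2 in 24. Low-score cells had a median S score of 0.829 and a median M score of 11.2, so these cells were not free of mitotic transcripts.

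**Figure D1:**
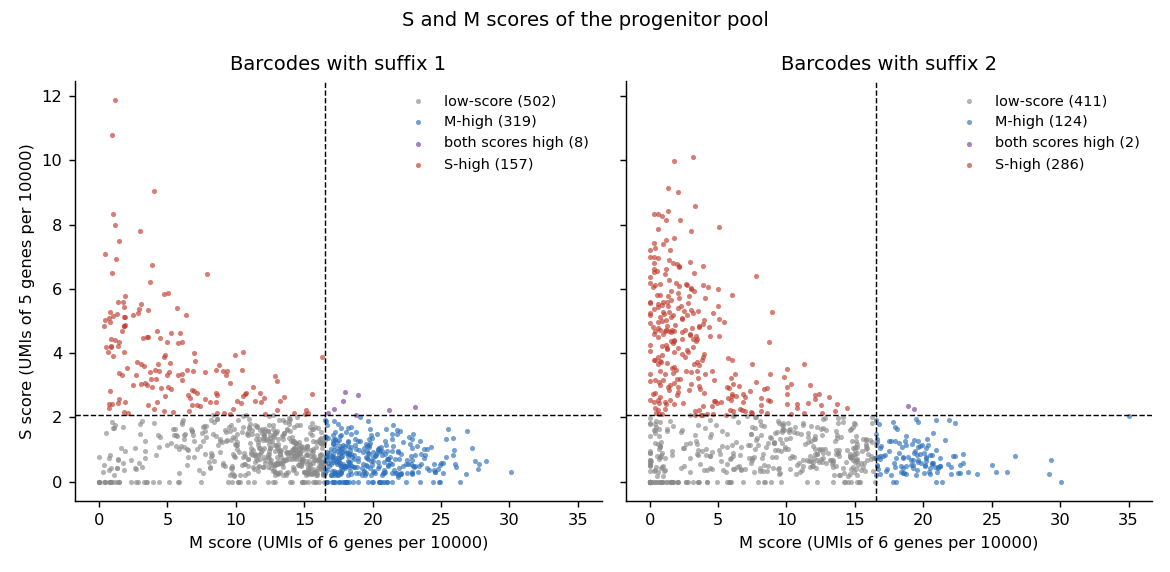
S score against M score, in UMIs per 10000, for each of the 1809 pool cells, with suffix 1 on the left and suffix 2 on the right. Dashed lines mark the limits of 2.09 for S and 16.53 for M. High S scores sit at low M scores in both suffixes, and the upper left holds 157 cells with suffix 1 and 286 with suffix 2.

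Each gene of the score is given as the pooled level in CPM, a gene's UMIs relative to all UMIs of the group. Mcm3 and Mcm6, subunits of the replicative helicase, stood at 112 and 131 CPM in S-high progenitors, against 23.5 and 21.5 in M-high cells and 27.0 and 28.3 in low-score cells. Ung, the uracil-DNA glycosylase that removes uracil from DNA, was at 42.4 CPM against 2.65 and 3.46. Cdt1, the licensing factor, was at 55.4 CPM against 8.82 and 14.2, and Clspn, the fork protein claspin, at 67.0 against 18.4 and 18.8. After thinning every cell to 10000 UMIs, 68.4% of S-high progenitors kept an Mcm3 UMI (97.1% unthinned), against 1.75% of 440 enteroendocrine cells (Chgb at 50 or more per 10000, median 15206.5 UMIs) and 10.1% of 302 enterocytes (the 4 enterocyte genes at 50 or more per 10000, median 34768.5 UMIs). These shares in other cell types hold free RNA and any expression of those cells, which were not told apart. For Ung the same thinned shares were 31.5%, 5.48% and 4.88%. Mcm3 and Ung belong to the S score, so their high shares in S-high progenitors follow in part from the choice of cells.

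At the limit itself the division was gradual. The 10 members nearest the limit had S scores of 2.088 to 2.113 from 3 to 9 UMIs, and the 10 cells nearest under it with a low M score had 2.032 to 2.084 from 5 to 19 UMIs. The helicase genes outside the score, Mcm2, Mcm4, Mcm5 and Mcm7, summed to 254 CPM inside and 214 CPM outside. Pcna was at 119 CPM inside and 63.1 outside, and the sum of Ccne1, Ccne2, E2f1 and Cdc6 was 57.6 inside and 65.6 outside.

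Replication genes that the score did not use were higher across all their roles. Of 105 such genes, 70 were 1.5-fold or more higher in S-high progenitors than in M-high cells and 1 was lower, with a median log2 ratio of 0.92 (on CPM + 1, as are all log2 ratios here). Over all 11112 genes at 1 CPM or more in that comparison, 5.55% were that much higher and 3.67% that much lower, and the median was 0.01. Against low-score cells 73 of the 105 were higher and 0 lower, with a median of 0.82, beside 2.59% higher and 2.18% lower among 11203 genes and a median of -0.01. Both comparisons share the S-high progenitors and are given side by side. Summed per cell, these 105 genes ran from 24.5 through a median of 71.0 to 110.0 UMIs per 10000 in S-high progenitors; the medians were 37.6 in M-high and 39.2 in low-score cells. The ranges overlapped, since the highest low-score cell reached 91.5.

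**Figure D2:**
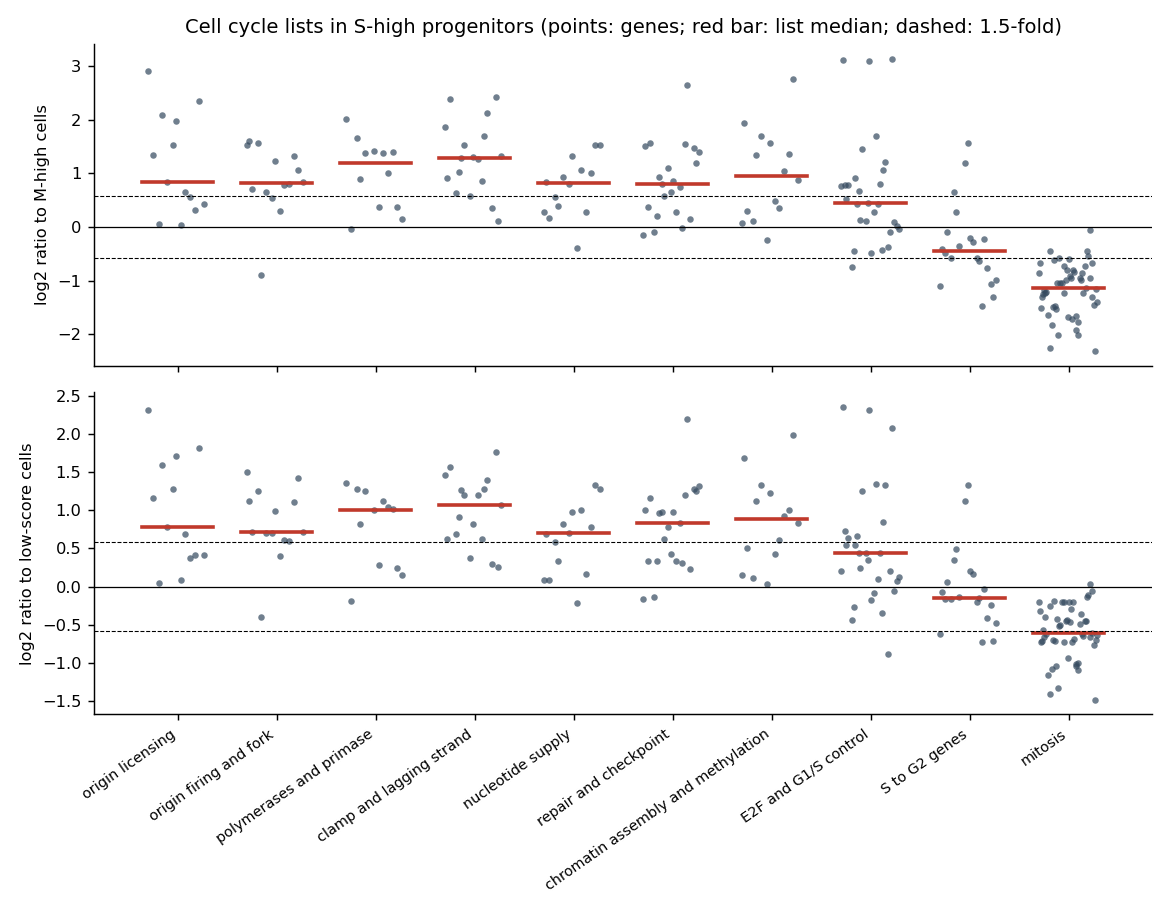
Log2 ratio of pooled CPM + 1 for the genes of 10 cell cycle lists, S-high progenitors against M-high cells above and against low-score cells below. Points are genes outside the score, red bars list medians, dashed lines 1.5-fold. The 7 replication lists have medians from 0.80 to 1.30 above and from 0.70 to 1.07 below, and the mitosis list lies at -1.14 and -0.61.

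Among the licensing genes, 8 of 13 were 1.5-fold or more higher than in M-high cells and the same number than in low-score cells, with medians of 0.84 and 0.78. Cdc6, the ATPase that helps load the helicase, was at 17.0 CPM in members with suffix 1 and 24.9 in those with suffix 2 (22.2 in both, interval 19.9 to 24.7), against 2.08 in M-high (1.45 to 2.87) and 3.65 in low-score cells (3.02 to 4.36). Both suffixes lay above both other groups. Its thinned share of cells with a UMI was 19.6%, against 1.24% in enteroendocrine cells and 2.7% in enterocytes (unthinned 46.0% in members). The remaining helicase subunits followed in both suffixes. Mcm2 was at 39.0 and 54.3 CPM with suffix 1 and 2, against 10.7 in M-high and 15.6 in low-score cells. Mcm4 was at 44.6 and 57.1 against 9.57 and 14.3, and Mcm5 at 82.5 and 103 against 23.5 and 28.6. Mcm7 showed the smallest ratio of the helicase genes, at 145 CPM against 56.6 and 64.3.

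The origin recognition complex was split. Orc6, its smallest subunit, was at 88.1 CPM against 30.1 and 35.6 (log2 ratios 1.52 and 1.28), and Orc1, the subunit known to be degraded after G1, was at 7.42 against 3.69 and 3.89. Orc2 (0.42 and 0.41), Orc3 (0.03 and 0.08), Orc4 (0.06 and 0.05) and Orc5 (0.32 and 0.42) all stayed within 1.5-fold. Gmnn, which encodes geminin, the inhibitor of CDT1 that accumulates once S phase has begun, was at 161 CPM against 101 and 99.3, a log2 ratio of 0.66 and 0.69.

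The promoters of several licensing genes hold a form of the E2F motif. Promoters here are 250 bases before to 50 after the start of a gene in RefSeq on GRCm38.p6, searched on both strands for 4 forms of the E2F motif, TTTCGCGC, TTTGGCGC, TTTCCCGC and TTTGCCGC, and for CCAAT. An E2F form was held by 2.61% of all 27025 genes. Of the 105 replication genes outside the S score 86 could be matched, and 26 of them (30.2%) held one, including 6 of 11 licensing genes. The shares differed between lists: 5 of 10 polymerase genes held a form, 5 of 14 chromatin genes, 3 of 14 clamp and lagging strand genes and 0 of 13 nucleotide supply genes. The windows of the following genes are shown because these genes, none of them in the S score, were all higher in S-high progenitors in both comparisons and each holds a match, in capitals. Mcm7 and Uhrf1 have 2 listed starts each, of which 1 holds a match. The window of Mcm5 holds a pair of overlapping forms.
Mcm5, chr8:75109324-75109395, plus strand: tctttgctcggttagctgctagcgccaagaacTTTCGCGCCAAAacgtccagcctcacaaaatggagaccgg
Mcm7, chr5:138172013-138172084, minus strand: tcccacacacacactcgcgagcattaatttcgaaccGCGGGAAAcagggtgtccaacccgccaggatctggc
Cdc6, chr11:98907977-98908048, plus strand: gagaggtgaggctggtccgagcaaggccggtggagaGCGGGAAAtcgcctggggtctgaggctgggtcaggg
Orc1, chr4:108579391-108579462, plus strand: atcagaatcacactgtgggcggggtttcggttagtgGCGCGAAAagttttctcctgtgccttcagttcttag
Uhrf1, chr17:56304092-56304163, plus strand: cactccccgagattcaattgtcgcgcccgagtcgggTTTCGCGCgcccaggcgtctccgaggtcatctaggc
A match is only a run of letters and not a binding site. Of the 5 genes of the S score, 4 held a form and Ung held none. Among the highest ratios below, E2f1, Ccne1, Chaf1b, Tcf19 and Slfn9 also held none of these letters in this window. Mcm2 and Pcna held none as well. Of 41 matched mitosis genes 0 held an E2F form and 29 (70.7%) held CCAAT, against 41.1% of all genes and 57.0% of the replication genes outside the score.

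Genes that fire origins and travel with the fork were higher in 11 of 14 cases against M-high cells and in 12 of 14 against low-score cells. Cdc45, the helicase activator, was at 27.7 and 31.2 CPM in suffix 1 and 2, against 9.75 in M-high and 9.99 in low-score cells. Gins1 and Gins2, parts of the GINS complex that binds CDC45, had log2 ratios of 1.07 and 1.23 against M-high cells. Timeless and Tipin, the fork protection pair, had 1.56 and 1.33. The only gene with ratios below 0 was Dbf4, the activator of the CDC7 kinase. Dbf4 was at 49.5 CPM against 93.4 in M-high cells (-0.90) and 65.8 in low-score cells (-0.40), while Cdc7 itself was higher (0.79 and 0.61). Ticrr stayed within 1.5-fold of low-score cells (0.40).

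Of 12 polymerase and primase genes, 8 were higher in either comparison, with medians of 1.19 and 1.01. The polymerase alpha and primase genes were among these 8: Pola1 was at 34.1 CPM against 7.73 and 12.6, and Prim1 at 71.9 against 22.0 and 28.9. For Pola1 a thinned share of 28.8% of members stood beside 20% of enteroendocrine cells, a high share for a gene at 7.73 CPM in M-high cells. Whether it reflects free RNA or expression in enteroendocrine cells was not tested. Accessory subunits were found on both sides: Pola2, Pold3 and Pole2 had 1.38, 1.42 and 1.38 against M-high cells, whereas Pold2, Pold4, Pole3 and Pole4 stayed within 1.5-fold, with log2 ratios of 0.38, -0.03, 0.14 and 0.37.

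The clamp and lagging strand list had the highest medians of the replication lists, 1.30 against M-high cells and 1.07 against low-score cells, and 14 of its 17 genes were higher in either comparison. Pcna, the sliding clamp, was at 115 and 127 CPM in suffix 1 and 2, against 27.4 in M-high and 45.7 in low-score cells. Lig1, which seals Okazaki fragments, was at 119 and 108, against 20.6 and 36.9. Both suffixes were above both other groups for each gene. Dscc1, part of an alternative clamp loader, had log2 ratios of 2.43 and 1.77, and Atad5, which unloads the clamp, 1.86 and 1.46. Rpa1 and Rpa2 of the single-strand binding complex had 1.69 and 1.29 against M-high cells, whereas the small subunit Rpa3 had 0.11.

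Among nucleotide supply genes, several of deoxynucleotide synthesis were higher. Rrm2, the regulatory subunit of ribonucleotide reductase, was at 167 and 157 CPM in suffix 1 and 2, against 54.9 in M-high and 65.6 in low-score cells. Dut, which destroys dUTP, was at 282 CPM against 112 and 142. Tyms, the thymidylate synthase, had smaller ratios of 0.81 and 0.71, and Tk1, the thymidine kinase, 1.01 and 0.78. Of the genes that serve RNA synthesis as well, Umps was higher (0.83 and 0.69), and Cad (0.27 and 0.09), Nme1 (0.28 and 0.16) and Impdh2 (0.16 and 0.09) stayed within 1.5-fold, as did Dctpp1 (0.39 and 0.34), an enzyme that hydrolyses deoxynucleotides. Samhd1, which breaks deoxynucleotides down, had -0.40 and -0.22. In all, 8 of 14 were higher than in M-high cells and 9 than in low-score cells.

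Repair and checkpoint genes were higher in 13 of 21 cases in either comparison, with medians of 0.80 and 0.84. Slfn9, a Schlafen family gene, was at 54.2 and 74.9 CPM in suffix 1 and 2, against 9.98 in M-high and 13.9 in low-score cells. Chek1, the kinase of the replication checkpoint, was at 22.3 CPM against 7.04 and 9.14, whereas Atr, the kinase upstream of it, was at 13.1 against 14.6 and 14.7. The mismatch repair gene Msh6 had a log2 ratio of 1.51 against M-high cells, and Brca1 and Exo1, which act in homologous recombination, had 1.48 and 1.39. Fancd2 (-0.09) and Fanci (0.14), a pair that acts in crosslink repair, did not reach 1.5-fold either way over all members. Within suffix 1 Fanci had 0.87 against M-high and 0.90 against low-score cells, and within suffix 2 it had -0.57 and -0.31.

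In chromatin assembly and methylation, Chaf1b, a subunit of the CAF-1 histone chaperone that follows the clamp, was at 47.6 and 56.9 CPM in suffix 1 and 2, against 7.09 in M-high and 12.7 in low-score cells. Uhrf1, which recognises newly copied DNA with methyl groups on the old strand alone, was at 83.2 and 92.6, against 22.6 and 27.0. Dnmt1, the maintenance methyltransferase that it recruits, was at 79.9 CPM against 26.2 and 33.4, and Hells, a remodeller of the same pathway, at 159 against 48.8 and 62.3. Slbp, the protein that binds the stem-loop of histone messages, was at 149 CPM against 56.9 and 73.8. Rbbp7, Asf1a and Suv39h1 stayed within 1.5-fold, and 8 and 9 of 14 genes were higher in the 2 comparisons.

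**Figure D3:**
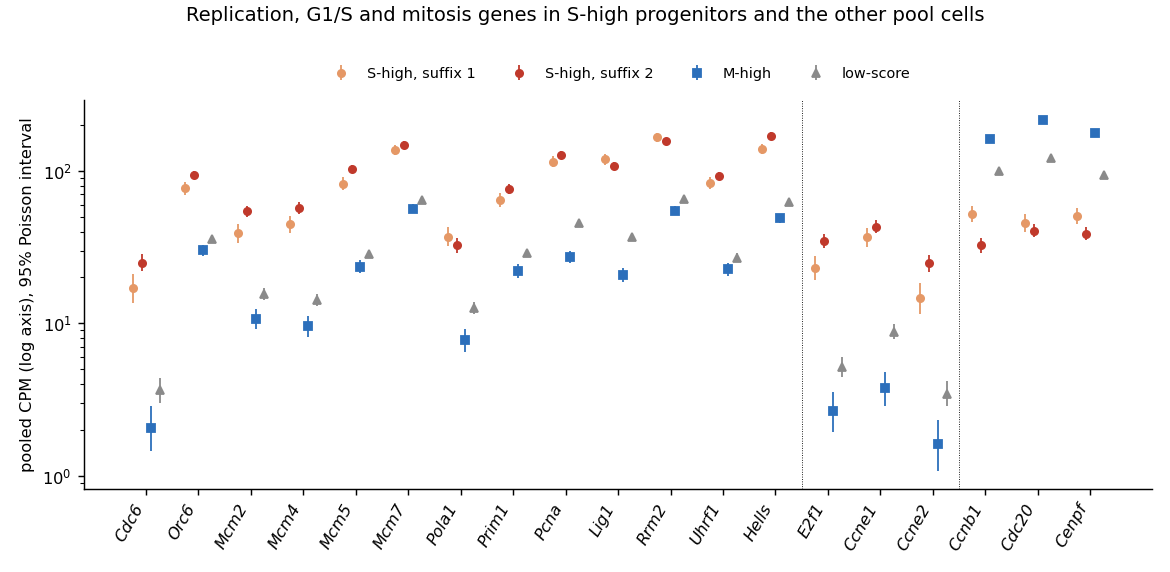
Pooled CPM on a log axis, with 95% Poisson intervals, of 13 replication genes, 3 G1/S genes and 3 mitotic genes. Circles are S-high progenitors by suffix, squares M-high cells, triangles low-score cells. Replication and G1/S genes lie higher in both suffixes of the S-high progenitors than in either other group, and Ccnb1, Cdc20 and Cenpf lie lower.

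The G1/S control genes held several of the largest ratios outside the score, and members of 1 family differed. Ccne1 and Ccne2, the E cyclins, were at 40.9 and 21.2 CPM in S-high progenitors, against 3.75 and 1.61 in M-high cells and 8.84 and 3.46 in low-score cells. E2f1, an activating E2F, was at 23.2 and 34.7 CPM in suffix 1 and 2 against 2.65 and 5.16, with a log2 ratio of 3.12 and 2.36. The thinned share of cells with an E2f1 UMI was 26.0% (unthinned 56.9%), against 9.06% in enteroendocrine cells and 6.25% in enterocytes. The atypical repressors E2f7 and E2f8, themselves targets of the family, had 1.21 and 1.45 against M-high cells. E2f4, a repressor bound in resting cells, had 0.09 and E2f5 -0.49. Among the cyclin D genes, which respond to growth signals, Ccnd3 had 0.91 against M-high and 0.54 against low-score cells, Ccnd1 0.77 and 0.20, and Ccnd2 0.43 and 0.10. Cdkn1b, which encodes the inhibitor p27, was at 30.3 CPM against 51.6 and 41.5. Over the list, 13 of 29 genes were higher and 1 lower against M-high cells (median 0.45), and 10 higher and 1 lower against low-score cells (median 0.44).

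Taking every gene rather than the lists, 494 of 7036 genes at 10 CPM or more (7.02%) lay 1.5-fold or more from M-high cells, 276 higher and 218 lower, and 247 of 7039 (3.51%) from low-score cells, 163 higher and 84 lower. Among the largest ratios that were not yet named, Tcf19, a transcription factor gene of the G1/S wave, was at 26.6 CPM against 2.31 and 5.95, and Fam111a, a protease gene of the replication fork, at 26.0 against 3.52 and 5.95. The lowest ratios against M-high cells belonged to Cdkn3 (-2.49), Cdc20 (-2.32), Cdc25c (-2.25), Cenpf (-2.02) and Ccnb1 (-2.01), genes of G2 and mitosis. Against low-score cells Cdkn3 (-1.69), Cdc20 and Ccnb1 again stood among the 12 lowest. The goblet gene Zg16 (5.86) and the Paneth genes Defa17 (2.75) and Defa24 (2.57) also ranked among the 12 highest against M-high cells, from few cells with suffix 2 that are described at the end; in suffix 1 alone their ratios were -0.11, -1.35 and -4.46.

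Mitotic genes were lower as a group, a direction that the M limit favours. Of 52 mitosis genes outside the M score, 47 were 1.5-fold or more lower than in M-high cells and 0 higher (median -1.14; 23 lower with a minimum of 50 CPM, which leaves fewer genes), and 27 lower and 0 higher than in low-score cells (median -0.61). Ccnb1, cyclin B1, was at 52.0 and 32.6 CPM in suffix 1 and 2, against 161 in M-high and 100 in low-score cells. Cdc20, the activator of the anaphase complex, was at 42.3 CPM against 215 and 121. The direction against low-score cells depended on which cells were taken as low: against cells under the pool median of both scores the mitosis median was 0.15, with 3 genes lower. The count of 27 was 7 with scores taken at 10000 UMIs per cell (median -0.30), 16 with percentiles within each suffix, 17 in suffix 1 alone, 17 with S from Ung, Cdt1 and Clspn, 15 with a pseudocount of 10 CPM, 9 with a minimum of 50 CPM and 43 with members at the 90th percentile of S.

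Genes that begin in S phase and last into G2 fell between. Fbxo5, the inhibitor of the anaphase complex also known as Emi1, was at 35.8 CPM against 11.4 and 13.7, and Ncapg2 of condensin II at 41.9 against 17.8 and 18.7. Ccna2, cyclin A2, was at 55.4 CPM against 120 and 85.6, and Hmgb2, a chromatin protein, at 724 against 1426 and 1012. Mki67 was at 117 CPM against 175 and 131, so this proliferation gene was present in S-high progenitors and highest in M-high cells. Of the 20 genes, 3 were higher and 7 lower than in M-high cells, and 2 higher and 3 lower than in low-score cells; these 20 share Tacc3 with the mitosis list.

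Replicative histone genes, whose messages build up in S phase, had a summed level between those of the other groups. They stood at 647 CPM (interval 635 to 661) in S-high progenitors, 802 (789 to 816) in M-high cells and 614 (606 to 622) in low-score cells. Against M-high cells 0 of 54 measured genes were 1.5-fold higher and 7 were lower. Against low-score cells 0 of 50 were higher and 1 lower. Within suffix 1, 0 were higher and 14 lower than in M-high cells, and 1 higher and 4 lower than in low-score cells; within suffix 2 the counts were 0 and 7, and 2 and 3. These messages end in a stem-loop and mostly lack the poly(A) tail that the 3′ assay captures, so their counts are a poor measure of the family, and near-identical copies can share reads.

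S-high progenitors were not uniform. To order them, they were put in 3 parts of equal size by the summed level of the 20 S to G2 genes, which the S score does not use. The parts held 148, 148 and 147 cells, of which 111, 103 and 72 had suffix 2, with median depths of 29082, 33460 and 34621 UMIs; the part of suffix and depth in the values below was not tested. Ratios of the highest to the lowest part are given over all members and, where stated, within each suffix. The parts are ranges along one measure and not cell types.

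Some genes of the G1/S boundary were highest in the lowest part and others were not. Cdc6 stood at 32.7, 23.5 and 11.4 CPM from the lowest to the highest part, a ratio of highest to lowest of 0.349 (0.343 in suffix 1 and 0.427 in suffix 2). E2f1 was at 35.9, 34.6 and 22.0 CPM (0.401 and 0.760 in suffix 1 and 2). Both had their lowest value in the highest part, also within each suffix. Ccne1 stood at 39.8, 36.4 and 46.9 CPM, with ratios of 1.46 and 1.06 in suffix 1 and 2, and Tcf19 at 19.1, 30.2 and 29.4, with 1.33 and 1.73. Ccne2 had no common direction, with a ratio of 1.40 in suffix 1 and 0.743 in suffix 2. The whole E2F and G1/S list summed to 1396, 1449 and 1367 CPM. The genes of the S score, which chose the cells, did not share a direction: the ratio was 0.234 for Ung, 0.608 for Cdt1, 0.820 for Mcm3, 0.955 for Mcm6 and 1.51 for Clspn.

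Several genes of nucleotide synthesis, and the histones, had the opposite order. Rrm2 stood at 96.1, 165 and 213 CPM, with ratios of 1.61 and 2.28 in suffix 1 and 2. Rrm1, the catalytic subunit, stood at 52.0, 80.6 and 114, with 1.90 and 2.61. Tk1 was at 33.4, 70.3 and 102 CPM, and its highest part was 2.01 times its lowest in suffix 1 and 3.79 times in suffix 2. The whole nucleotide supply list differed less, at 1653, 1988 and 2196 CPM, a ratio of 1.33, with 1.23 and 1.36 in suffix 1 and 2. E2f7 was at 4.77, 7.72 and 16.2 CPM (3.43 and 4.01 in suffix 1 and 2). Replicative histones were far apart along this order: they summed to 293, 557 and 1058 CPM, a ratio of 3.61, with 3.35 in suffix 1 and 3.89 in suffix 2. Hist1h2ap alone went from 15.5 through 78.9 to 175 CPM, a ratio of 11.3, with 9.81 in suffix 1 and 17.8 in suffix 2. Hist1h1b, a linker histone, went from 15.9 through 52.96 to 141 CPM, with 10.8 and 14.2 in suffix 1 and 2. Mitosis genes also had their highest sum in the highest part (878, 2218 and 3647 CPM, with ratios of 3.68 and 4.08 in suffix 1 and 2); 1 of them, Tacc3, is also in the ordering list.

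The sums of the following lists differed by less than 1.5-fold along the order. The licensing genes outside the score summed to 701, 782 and 695 CPM, a ratio of 0.991, with ratios of 0.916 in suffix 1 and 1.07 in suffix 2. Clamp and lagging strand genes summed to 855, 1094 and 1158 CPM, a ratio of 1.35, with 1.18 and 1.45 in suffix 1 and 2. Chromatin assembly genes summed to 1398, 1640 and 1590 CPM, with 1.048 and 1.204. Slbp stood at 138, 148 and 158 CPM, while the histone messages that its protein binds differed by the 3.61-fold given above.

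**Figure D4:**
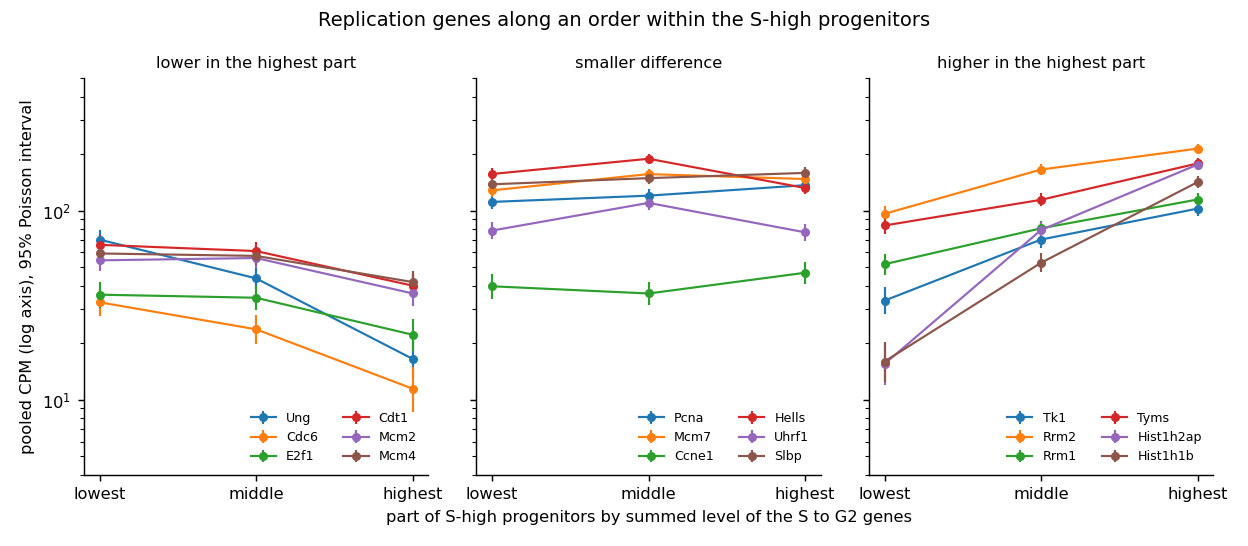
Pooled CPM on a log axis, with 95% Poisson intervals, in 3 equal parts of the S-high progenitors ordered by the summed S to G2 genes. The left panel holds genes that were lower in the highest part, such as Cdc6 from 32.7 to 11.4 CPM (Ung and Cdt1 are in the S score), the middle panel genes that differed less, and the right panel genes that were higher, such as Hist1h2ap from 15.5 to 175 CPM.

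The median S-high progenitor held 32653 UMIs and 4936 genes, against 39057 and 5443 in M-high cells and 35425 and 5158 in low-score cells. At an equal depth of 10000 UMIs the medians were 2668, 2658 and 2642 genes. Mitochondrial UMIs took a median of 8.66%, 8.89% and 9.01%, and ribosomal protein genes 33.5%, 34.2% and 33.8%. Of the 25 ribosome biogenesis and MYC genes, 0 lay 1.5-fold or more apart in either comparison, with medians of 0.20 and 0.16. Of 21 p53 target genes, 0 were higher in either comparison, 1 was lower than in M-high and 2 than in low-score cells. Within suffix 2 alone, 8 were lower than in M-high cells (median -0.50) and 6 than in low-score cells (-0.38). Within suffix 1, 1 was higher and 2 lower than in M-high cells and 2 lower than in low-score cells. Over all genes at 10 CPM or more, 545 lay 1.5-fold or more either way from M-high cells within suffix 2 and 419 within suffix 1. From low-score cells 267 and 240 did. The share of all genes that were lower was not taken within a suffix.

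Of 15 measured stem and Wnt target genes, 1 was higher and 1 lower than in M-high cells, with a median of 0.00, and 1 was lower than in low-score cells (median -0.07), beside 5.55% higher and 3.67% lower of all genes in the former comparison and 2.18% lower in the latter. Within suffix 1, 0 differed from M-high cells and 1 was lower than in low-score cells; within suffix 2, 1 was higher than in M-high and 2 than in low-score cells and 0 lower. Sox9, a crypt transcription factor, was at 75.2 CPM against 75.4 and 77.9, and Axin2, a Wnt feedback gene, at 36.2 against 44.1 and 38.2. Olfm4, a stem cell marker, was at 20.3 CPM with suffix 1 and 3.92 with suffix 2, against 37.7 in low-score cells (log2 ratio -1.87, but 0.88 in suffix 2 alone), and 42.2% of its UMIs came from 3 cells. Absorptive progenitor genes had 2 of 14 higher and 1 lower than in M-high cells, which within a suffix were 0 and 0 (suffix 1) and 1 and 0 (suffix 2), and 0 of 14 past 1.5-fold against low-score cells. Hes1, the Notch target that favours the absorptive fate, was at 329 CPM against 364 and 351. Structural epithelial genes were well covered, with Krt19 at 798 CPM and Vil1 at 105.

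The secretory progenitor list summed to 320 CPM in S-high progenitors, 426 in M-high and 408 in low-score cells. Of 10 measured genes 2 were lower and 0 higher than in M-high cells, and of 11 measured 4 were lower and 0 higher than in low-score cells. Against M-high cells of the same suffix, 0 were higher and 3 lower in suffix 1, and 3 higher and 4 lower in suffix 2. Atoh1, the factor that sets the secretory fate, was at 1.35 CPM against 1.56 in M-high and 0.972 in low-score cells, and Neurog3, the endocrine commitment factor, at 0.674 CPM against 6.46 in M-high and 8.29 in low-score cells, all of its UMIs coming from 3 cells or fewer. The enteroendocrine list summed to 107 CPM in S-high progenitors, 103 in M-high and 202 in low-score cells, a level that the pool's Chgb limit bears on. Per cell the medians were 0.959, 0.896 and 0.944 UMIs per 10000, and the highest low-score cell held 886.9 against 5.38 in the highest S-high progenitor. Outside the list, Ghrl, which encodes the hormone ghrelin, was at 4.92 CPM in S-high progenitors, 9.11 in M-high and 422 in low-score cells, and Nts, which encodes neurotensin, had a log2 ratio of -4.04 against low-score cells, which was 0.34 in suffix 2 alone. Of 11 measured enteroendocrine genes 7 were lower than in low-score cells and 0 of 8 differed from M-high cells. Tuft, immune and mesenchymal lists summed to 1.48, 1.21 and 0.876 CPM in S-high progenitors.

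Some heat shock genes were higher. Hspa1a and Hspa1b, the inducible HSP70 genes, were at 183 and 115 CPM, against 57.7 and 38.0 in M-high and 97.8 and 55.8 in low-score cells, and their ratio to M-high cells held in both suffixes (2.40 and 2.01 as log2 in suffix 1, 0.66 and 0.88 in suffix 2). The pair is near-identical, so reads may be split between them. Of 12 heat shock genes 5 were higher than in M-high and 2 than in low-score cells. Against M-high cells of the same suffix 4 were higher in suffix 1 and 3 in suffix 2, and against low-score cells 2 in each, with 1 lower in suffix 1. The revival-like and repair list, genes of damage-induced epithelium, had 8 of 13 higher than in M-high cells and 6 of 13 lower than in low-score cells (within suffix 1 and suffix 2, 7 and 8 were higher than in M-high cells, and 5 and 9 lower than in low-score cells, the latter with a median of -0.93), and a few cells carried much of it: 3 cells held 48.7% of the S100a6 UMIs and 93.1% of the Ly6a UMIs. The suffixes were unequal across the groups (suffix 2 gave 286 of 443 S-high, 124 of 443 M-high and 411 of 913 low-score cells), and this list differed between suffixes in all 3, with medians of 1.39, 1.30 and 1.39 for suffix 2 over suffix 1.

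The share of S-high progenitors differed between suffixes. They made up 15.9% of the suffix 1 pool (157 of 986 cells, interval 13.7 to 18.4) and 34.8% of the suffix 2 pool (286 of 823, 31.5 to 38.1). M-high cells went the other way, with 32.4% (29.4 to 35.4) and 15.1% (12.7 to 17.7), and low-score cells were 50.9% and 49.9%. There is 1 set of barcodes on each side, so no spread between replicates stands behind these shares. The median depth of members was 32006 UMIs with suffix 1 and 32791.5 with suffix 2. With both scores taken from each cell thinned to 10000 UMIs, the shares were 25.2% and 41.9%. Of 29 barcode sequences that occurred with both suffixes, 0 were members.

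Within S-high progenitors the replication genes hardly differed by suffix. Of 105, 0 were 1.5-fold or more higher with suffix 2 and 1, Fanci, was lower (8.58 CPM with suffix 1 and 3.40 with suffix 2), with a median log2 ratio of 0.05. Over all 11119 genes 5.93% were that much higher with suffix 2 and 3.75% lower, and the median was 0.05. Each suffix on its own showed the ratios to its own low-score cells: 66 of 105 replication genes were higher in suffix 1, 71 in suffix 2 and 63 in both, with medians of 0.84 and 0.89. Against M-high cells of the same suffix the counts were 68, 74 and 66. Mitosis genes were slightly lower with suffix 2, with 5 of 52 past 1.5-fold lower, 1 higher and a median of -0.30. Members were chosen by limits set over both suffixes; with limits set within each suffix 24 of the 105 replication genes were higher with suffix 2, and 37 mitosis genes were lower, with a median of -0.84. Under the other alternatives 1 to 11 mitosis genes were lower with suffix 2.

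Genes of other functions separated the suffixes, 331 of 7013 at 10 CPM or more (4.72%), 219 higher with suffix 2 and 112 lower. Part of the enterocyte list was lower with suffix 2. Sis, sucrase-isomaltase, was at 177 CPM with suffix 1 and 68.5 with suffix 2. Of 14 measured, 6 were lower and 2 higher, with a median of -0.17, and Anpep, aminopeptidase N, was one of the latter, at 34.5 and 106 CPM. Adh1, alcohol dehydrogenase, was at 51.7 and 7.01 CPM, and Reg1, a regenerating islet-derived lectin gene, at 31.6 and 1.86. Gsta3, a glutathione transferase gene, was at 89.7 and 245, Areg, the EGF receptor ligand amphiregulin, at 91.2 and 241, and Cyr61, a YAP target gene, at 22.4 and 62.8. None of these ratios was confined to S-high progenitors. In low-score cells the log2 ratios of suffix 2 over suffix 1 were -1.28 for Sis, -1.99 for Adh1, 1.49 for Gsta3, 1.39 for Areg and 1.40 for Cyr61, and in M-high cells they had the same signs.

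YAP target genes had 6 of 10 higher with suffix 2 (median 0.77), and 4 were higher in M-high (median 0.30) and 4 in low-score cells (0.45); Edn1, which encodes endothelin 1, was at 71.0 and 151 CPM in S-high progenitors. In M-high cells Edn1 was level between suffixes, with a log2 ratio of -0.04, and in low-score cells it had 0.39. Immediate early genes had 3 of 12 higher (median 0.42), against 1 in M-high and 1 in low-score cells. Of 21 p53 target genes 5 were higher in S-high progenitors (median 0.43), 13 in M-high (0.71) and 8 in low-score cells (0.53). The p53 target Ccng1 was at 54.4 and 83.4 CPM in S-high progenitors, a log2 ratio of 0.61, and had 0.85 in M-high and 0.93 in low-score cells. Over all genes 5.93% were 1.5-fold or more higher with suffix 2 in S-high progenitors. In M-high and low-score cells that share was not taken, so the counts for them stand without it.

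**Figure D5:**
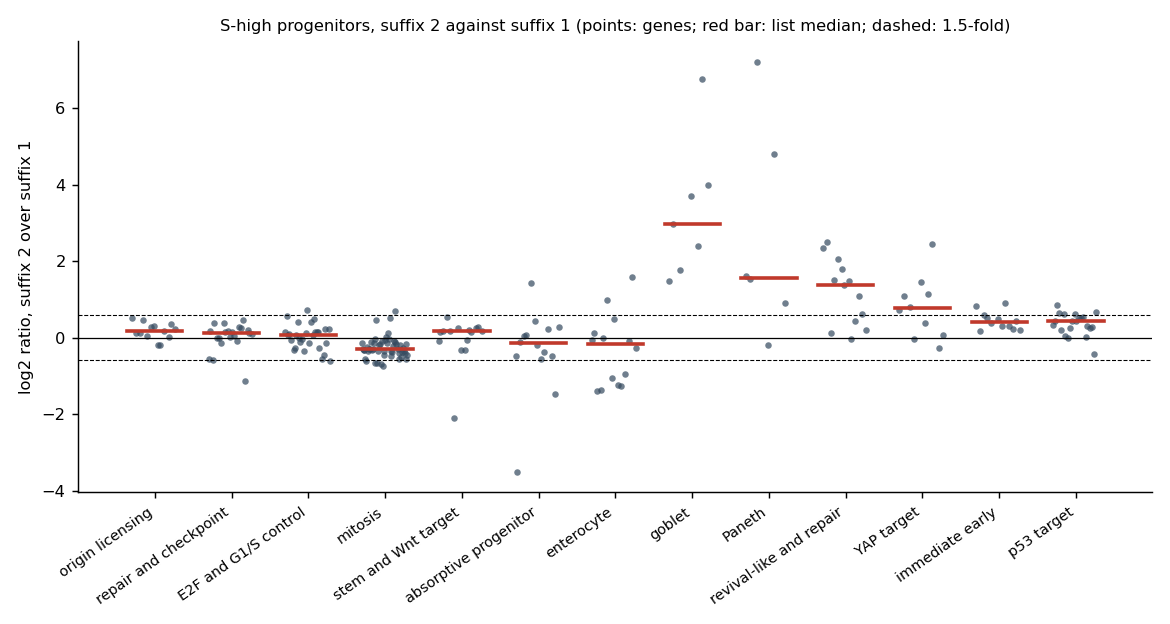
Log2 ratio of suffix 2 over suffix 1 in pooled CPM + 1 within S-high progenitors, for the genes of 13 lists. Points are genes, red bars list medians, dashed lines 1.5-fold. The medians of licensing, repair and G1/S genes are 0.17, 0.13 and 0.06, with Fanci (-1.12) and Ccne2 (0.72) among the genes past 1.5-fold, and goblet, Paneth and revival-like genes have medians of 2.97, 1.58 and 1.39.

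Goblet and Paneth genes had the largest suffix ratios, and these came from few cells. Zg16, a goblet secretory gene, was at 0 CPM with suffix 1 and 108 CPM with suffix 2, with 99.5% of its UMIs in 3 cells. Defa24, a Paneth defensin gene, was at 5.07 and 900.5 CPM, with 89.6% of the suffix 2 UMIs in 3 cells, and Spink4 at 71.0 and 945, with 80.0% in 3 cells. Only 18 of the 443 cells held 50 or more UMIs per 10000 of the goblet and Paneth lists, 1 with suffix 1 and 17 with suffix 2; the median over all S-high progenitors was 3.97. These 18 cells had a median of 34799 UMIs and a median S score of 3.07, against 32636 and 3.87 in the other 425. Whether they are pairs of cells under 1 barcode was not tested, and no doublet caller was run. Without such cells the log2 ratio was -1.45 for Spink4, -1.40 for Tff3, -0.33 for Muc2 and -2.18 for Fcgbp, opposite to that over all members. No opposite ratio was found for Zg16, Defa24 or Defa17. Of the 105 replication genes 0 were still higher with suffix 2. In low-score cells the log2 ratios of suffix 2 over suffix 1 had the sign seen in the members, with 3.38 for Defa24, 0.82 for Spink4, 3.82 for Zg16, 2.27 for Muc2 and 0.90 for Tff3. In M-high cells they were -3.10, -1.81, 0.56, -1.62 and 2.24 in the same order. Both groups also held cells with 50 or more per 10000 of these lists. With suffix 1 and 2 there were 21 and 28 among low-score cells, and 18 and 7 among M-high cells.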

How the data were processed

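One sparse matrix of whole-number UMI counts per gene and barcode (31053 genes, 21806 barcodes, 194068573 UMIs) was used as deposited. Per the labels' protocols, libraries were made with the Chromium 3′ v3 kit and sequenced on a NovaSeq 6000. Per the submitters' processing notes, the tools were Cell Ranger 3.1.0, bcl2fastq 2.20.0 and STAR 2.7.3a; the genome build is not given in the sources used here. The matrix, barcode and gene files deposited for the control and melatonin samples were identical, so n was 1 and no test fitted.

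The members and the gene lists were chosen with earlier results of these data known. UMIs were summed over the cells of a group and divided by the group's total, in CPM. Poisson intervals treat UMIs as independent and leave out variation between cells, lines and libraries. Log2 ratios used CPM + 1. A gene was counted as higher or lower at 1.5-fold or more, at a mean of 1 CPM for lists and of 10 CPM for counts over genes. Shares over all genes were taken only for comparisons over all S-high progenitors, not within 1 suffix or between suffixes of the other groups. Genes named by rank were the 12 highest and 12 lowest log2 ratios of each comparison at 20 CPM or more in either group with intervals that did not overlap, leaving out mitochondrial genes and those of the rule; the other named genes come from the lists. Shares of cells with a UMI were the expected shares after drawing 10000 UMIs per cell without replacement. No doublet caller was run, and whether doublets were removed before deposit is not given in the sources used here. The calculations were tested on simulated data and run with Python 3.11.15, numpy 2.4.6, scipy 1.17.1, pandas 2.3.3 and matplotlib 3.10.9. Of the 31053 gene IDs, 30934 were in the reference name table. Alternatives changed the S limit, the score genes, depth, mitochondrial and expression limits, the pseudocount, the pooling and the suffix. Some genes of the lists are counted in them but not reported by name here.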

Additional observations from a re-analysis of the deposited data

How the results depend on the processing

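No paired analysis was possible because the files of both samples were identical and no result came from a test. Replication genes were higher in S-high progenitors under every alternative run, by counts of 24 to 76 against M-high cells and 28 to 86 against low-score cells. The lowest, 24 of 39 and 28 of 41 genes, came with a minimum of 50 CPM, and the others were of 105. Every alternative still set cells chosen for high S genes against cells lower in them, which favours this direction. Across 19 settings, 78 summary values kept their reading and 26 moved. The cause of the changes below was not tested.

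With members at the 90th percentile of S there were 181, 73.5% with suffix 2; 766 genes lay past 1.5-fold from M-high cells, 473 from low-score cells and 664 between suffixes, with 3 replication genes higher in suffix 2; Zg16 (-0.07), Defa17 (-0.96) and Defa24 (-3.61) reversed against M-high cells, Zg16 (-2.59) against low-score cells, and Spink4 (-1.24), Tff3 (-0.04) and Fcgbp (-1.79) between suffixes. With percentiles within each suffix, 47.0% of members had suffix 2, 24 replication genes were higher in suffix 2, and Defa24 against M-high (-0.26), Zg16 against low-score (-0.22) and Fcgbp between suffixes (-0.43) reversed. At 20000 UMIs Gcg (0.01) and Cck (0.04) reversed against low-score cells. A mitochondrial limit of 10% left 294 members. Scores at equal depth gave 58.2% with suffix 2, 318 genes past 1.5-fold from M-high cells, 3 replication genes higher in suffix 2, and Zg16 at -0.95 against low-score cells. With S from Ung, Cdt1 and Clspn 2 replication genes were higher in suffix 2, and with the mean of each cell's CPM 1 was. Without the 5% deepest cells Ly6d was at 0.95 against low-score cells. Against cells under both medians 555 genes were past 1.5-fold and the mitosis median was 0.15.

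A pseudocount of 10 gave 288, 138 and 151 genes against M-high cells, low-score cells and between suffixes, a minimum of 50 CPM gave 127, 62 and 87, and no minimum gave 1151, 628 and 1461. In suffix 1 alone Zg16 (-0.11), Defa17 (-1.35) and Defa24 (-4.46) reversed against M-high cells and Zg16 (-0.08) against low-score cells; in suffix 2 alone Nts (0.34) and Olfm4 (0.88) did against low-score cells. A pair of alternatives was chosen after seeing the data. Without goblet and Paneth-rich cells Zg16 (-0.12) and Defa17 (-0.11) reversed against M-high cells, and Muc2 (-0.33), Spink4 (-1.45), Tff3 (-1.40) and Fcgbp (-2.18) between suffixes. With the 3 parts made within each suffix the licensing ratio was 1.02 (0.991 before). At these depths genes of a few CPM rest on few UMIs per cell.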
